A study of Drosophila melanogaster with 3 samples.

Results

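The regions described here lie on the X chromosome of Drosophila melanogaster and were recovered with the protein chiffon from whole embryos. They are the lines with chrX in the thresholded list of regions on the genome build dm6, 952 of the 5035 regions of that list (18.9%), and they were set against the 3215 regions on the autosome arms 2L (968), 3L (1036) and 3R (1211). In the ChIP-seq behind the list, DNA bound to chiffon fused at its C-terminus to eGFP was pulled down with an antibody against GFP, from embryos of both sexes aged 0 to 24 hours of a transgenic line named chif-RB-GFP, and sequenced. There was 1 group, chif-eGFP ChIP, of 3 biological replicates, so every comparison below is between chromosome arms within the same embryos. All 3 replicates carried the fusion, and an untagged library was not analysed here. Embryos of all these ages and all tissues were mixed, so a region bound in fewer cells and a region bound more weakly in each cell cannot be told apart.

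Chiffon is related to Dbf4, which activates the kinase Cdc7 as replication origins fire, and a further product of the same gene works with the histone acetyltransferase Gcn5. Which of these products the tag reports was not tested. The X is present in a single copy in males and as a pair in females. In fly males the MSL complex, with the noncoding RNAs roX1 and roX2 and the acetyltransferase mof, binds along the X and raises its transcription, while in females the RNA-binding protein Sxl keeps that complex from forming. Sex was pooled in these embryos, so the copy number of X in the chromatin cannot be told apart from other differences between X and the autosomes.

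The list reports a signal for each region, a score given by the authors' peak caller that was compared only within a list, and a summit, the position of highest signal. A region was said to be backed by a replicate when one of the 5035 regions of highest signal of that replicate, its top regions, had its summit inside. Regions on X had a median width of 410 bp (102 to 460 bp) and a signal between 106 and 2894. Read counts are not part of the lists, which leaves the depth of the replicates unknown, and a single control file was used per build. Intervals are exact 95% intervals that treat regions as independent, which neighbouring regions are not, and p-values over regions are too small to that extent. They do not measure the spread between embryo collections.

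Sequence around some summits is shown first, because the strongest X regions and the intronic ones carry most of what follows. Each window is the plus strand of the RefSeq Release 6 assembly, the assembly of dm6, 75 bases to either side of the summit. Capitals mark any of 7 short sequences of 6 bases (6-mers) that were common at X summits outside promoters, read on both strands. They overlap one another and were picked after their frequencies had been seen, and they are listed first.
6-mer 1: ACAGTG
6-mer 2: CAGTGC
6-mer 3: AGTGTA
6-mer 4: GTGCAC
6-mer 5: CACTGA
6-mer 6: ACACTG
6-mer 7: AGTGCA

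The strongest promoter region of X, at the Polycomb group gene ph-p (chrX:2137268-2137418), and the 3 strongest regions outside promoters, in CG32772 (chrX:4910289-4910439), in the noncoding RNA CR44619 (chrX:12752293-12752443) and in the kinase gene Tlk (chrX:3742165-3742315), read as follows.
ph-p: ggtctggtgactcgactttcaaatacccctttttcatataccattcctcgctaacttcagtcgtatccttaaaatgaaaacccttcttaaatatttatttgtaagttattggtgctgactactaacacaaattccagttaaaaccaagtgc
CG32772: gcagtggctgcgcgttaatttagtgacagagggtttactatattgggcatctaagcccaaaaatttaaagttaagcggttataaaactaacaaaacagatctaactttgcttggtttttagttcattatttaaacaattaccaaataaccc
CR44619: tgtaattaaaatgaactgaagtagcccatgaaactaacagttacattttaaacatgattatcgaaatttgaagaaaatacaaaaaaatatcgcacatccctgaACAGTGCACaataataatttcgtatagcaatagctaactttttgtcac
Tlk: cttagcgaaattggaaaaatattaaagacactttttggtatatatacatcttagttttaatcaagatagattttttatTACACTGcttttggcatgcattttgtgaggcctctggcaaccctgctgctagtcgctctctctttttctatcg

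The windows of ph-p and CG32772 held none of the 7, that of CR44619 held 4 in an overlapping run and that of Tlk held 2. Of the 440 intronic X regions, 20 held at least 4 of them in such a window. The strongest of those 20 are shown as examples of the sequence and were chosen for it. They lie in introns of CG34417 (chrX:6549788-6549938, signal 694), of the septin gene Septin4 (chrX:16691552-16691702, signal 408), of Marf (chrX:6366424-6366574, signal 329), which encodes the mitofusin of the outer mitochondrial membrane, and of the cell adhesion gene kirre (chrX:3025614-3025764, signal 270).
CG34417: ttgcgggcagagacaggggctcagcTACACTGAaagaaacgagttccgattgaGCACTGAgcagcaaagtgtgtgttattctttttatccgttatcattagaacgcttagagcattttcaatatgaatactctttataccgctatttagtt
Septin4: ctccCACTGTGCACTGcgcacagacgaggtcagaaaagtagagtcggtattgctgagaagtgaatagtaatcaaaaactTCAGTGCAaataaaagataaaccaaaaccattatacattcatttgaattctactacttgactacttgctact
Marf: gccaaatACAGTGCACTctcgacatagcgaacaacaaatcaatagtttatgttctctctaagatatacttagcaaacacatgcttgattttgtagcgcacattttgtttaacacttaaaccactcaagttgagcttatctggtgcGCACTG
kirre: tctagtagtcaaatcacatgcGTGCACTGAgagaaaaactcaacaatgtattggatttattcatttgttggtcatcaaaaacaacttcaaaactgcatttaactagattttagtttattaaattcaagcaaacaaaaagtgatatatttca

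X regions lay in introns more often, and between genes less often, than regions on the other arms. Each summit took the first of 7 classes that applied. Promoters, within 500 bp of any transcription start site (TSS), came first. A 5' UTR was taken before a coding exon and that before a 3' UTR, then came noncoding exons and introns, and what remained was intergenic. Introns held 440 of the 952 X regions (46.2%, interval 43.0 to 49.4), against 992 of 3215 on 2L, 3L and 3R (30.9%, interval 29.3 to 32.5). The odds ratio was 1.93 (two-sided Fisher's exact test, adjusted over the 7 classes by the Benjamini-Hochberg method, adjusted p = 4.47e-17). Intergenic summits made up 85 of the X regions (8.93%, interval 7.19 to 10.9), against 609 on the 3 arms (18.9%, interval 17.6 to 20.3), an odds ratio of 0.42 (Fisher's exact test, adjusted p = 7.73e-14).

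Every one of the arms lay on the same side of X for both classes. Introns held 29.3% of the regions of 2L, 30.4% of those of 3L and 32.5% of those of 3R, all under the lower bound of the interval for X. Intergenic summits were 20.5% of the regions of 2L, 22.3% of those of 3L and 14.9% of those of 3R. The arm 2R, outside the comparison, had 33.2% intronic and 12.1% intergenic regions. On 2R the intergenic interval (9.94% to 14.4%) overlapped that of X.

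**Figure D1:**
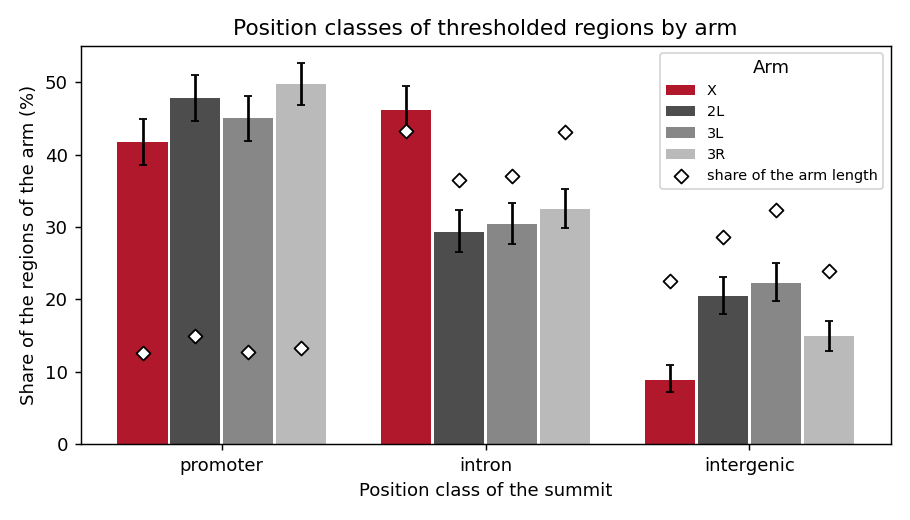
Share of the thresholded regions of an arm (percent) whose summit lay in a promoter, an intron or between genes, for X and the arms 2L, 3L and 3R. Bars are shares of 952, 968, 1036 and 1211 regions, error bars exact 95% intervals over regions, and diamonds the share of the arm's length in the class. The intron bar of X, at 46.2%, stands above those of the other arms, which lie between 29.3% and 32.5%.

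The larger intronic share was not matched by a like difference in how much of X is intron. Introns so defined covered 43.3% of the length of X and 39.2% of the length of the 3 arms, and intergenic sequence 22.6% and 28.0%. Per Mb of intron X had 43.1 regions, against 30.2 on the 3 arms, a ratio of 1.43 (interval 1.27 to 1.60, exact conditional binomial test, two-sided, adjusted over the 7 classes, adjusted p = 1.07e-08). Per Mb of intergenic sequence X had 16.0 regions, against 26.0 (ratio 0.617, interval 0.485 to 0.775, exact binomial test, adjusted p = 4.38e-05), and 2R had 13.7. The arm 3R has about as much intron as X, 43.1% of its length, and had 28.4 regions per Mb of it.

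Promoters held 397 X regions (41.7%), against 1532 on the 3 arms (47.7%), a difference of -5.95 percentage points (Fisher's exact test, adjusted p = 0.00299). Per Mb of promoter sequence the rates were 134 on X and 135 on the 3 arms (ratio 0.991, interval 0.886 to 1.11, exact binomial test, adjusted p = 1.0), so the promoter call holds for shares of regions and not for the rate. Of the small classes, 3' UTRs held 14 X regions (1.47%), against 23 (0.715%), with an adjusted p of 0.081. The remaining classes, 5' UTR (6 regions on X), coding exon (3) and noncoding exon (7), did not pass Fisher's exact test either (adjusted p = 0.175, 1.0 and 0.261). With promoters narrowed to 250 bp, 5' UTRs held 15 X regions, against 18 on the 3 arms, and this difference of 1.02 points passed (Fisher's exact test, adjusted p = 0.00932), as did that of 3' UTRs (0.934 points, adjusted p = 0.0188), which also passed with any 1 replicate left out (0.999 to 1.17 points).

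What counts as intron depends on where annotated genes end, and X has more very long genes. Genes of 50 kb or more numbered 78 on X, against 53 on 2L, 65 on 3L and 64 on 3R. With all genes of that length left out of the annotation, 30.1% of X regions and 22.2% of regions on the 3 arms were intronic, a difference of 7.91 percentage points (Fisher's exact test, adjusted p = 5.79e-06). Intergenic shares were then 27.2% on X and 29.3% on the 3 arms, and the difference of -2.06 points did not pass Fisher's exact test (adjusted p = 0.259). With genes of 100 kb or more left out the differences were 10.3 points for introns (Fisher's exact test, adjusted p = 2.11e-08) and -4.52 points for intergenic summits (adjusted p = 0.00554). Leaving such genes out turns their introns into intergenic sequence, so these settings cannot locate the intergenic difference. The intron difference passed the test under both annotations.

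Each replicate showed the intron and intergenic differences in its own top regions. Introns held 44.8%, 50.1% and 44.6% of the top X regions of replicates 1, 2 and 3, against 28.9%, 32.7% and 29.9% of their top regions on the 3 arms. No X value overlapped a value of the arms. The mean difference was 16.0 ± 1.35 percentage points (SD, n = 3), with an exact sign-flip p of 0.25, the smallest that 3 replicates can give. Intergenic summits were 7.94%, 11.2% and 9.03% on X, against 18.1%, 22.1% and 19.1%, a difference of -10.4 ± 0.473 points (SD, n = 3, exact p = 0.25).

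**Figure D2:**
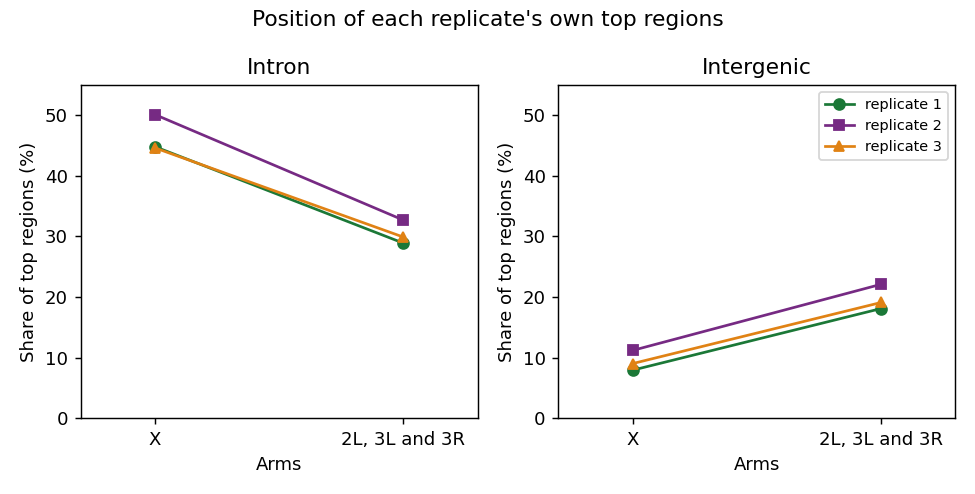
Share (percent) of the top regions of each replicate that lay in introns (left) and between genes (right), on X and on 2L, 3L and 3R together. Each line joins the values of 1 replicate: all 3 intron lines fall to the right, where the arms lie between 28.9% and 32.7%, and all 3 intergenic lines rise.

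The promoter difference varied more between replicates. It was -5.85 points in replicate 1, -2.39 in replicate 2 and -5.82 in replicate 3, and in replicate 2 it did not pass Fisher's exact test over regions (adjusted p = 0.265). Replicate 2 also stood apart in coding exons, which held 1.28% of its top X regions, against 6.08% on the 3 arms (Fisher's exact test, adjusted p = 8.16e-11). In replicate 1 these shares were 0.227% on X and 0.371% on the arms, and in replicate 3 they were 0.33% and 0.218%. The pooled reads contain all 3 replicates, so the replicates are not independent of the thresholded list.

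Intronic X regions sat about as far from start sites as those of other arms. The median distance to the nearest TSS was 2726 bp on X, against 2924 bp on 2L, 2584 bp on 3L and 3394 bp on 3R. Within 2 kb of a TSS lay 169 of the 440 on X, against 109 of 284, 129 of 315 and 150 of 393 on those arms. The protein-coding genes around them were longer, with a median of 37.4 kb on X and 27.6, 30.9 and 29.6 kb on 2L, 3L and 3R. Genes of 30 kb or more held 53.2% of the intronic regions of X and 45.8%, 49.8% and 47.8% on those arms. Of intron sequence they held more, 64.7% on X and 61.7%, 67.2% and 68.6% on the arms. The median signal of intronic regions was 175 on X and 178, 166 and 181 on the same arms. These are descriptions with no test.

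X regions gathered inside a set of genes. A count of 5 or more regions was reached in 29 protein-coding genes of X, which held 209 X regions (22.0%), against 19 genes with 116 of the 968 regions on 2L, 20 genes with 120 of 1036 on 3L and 21 genes with 124 of 1211 on 3R. The cell adhesion gene kirre (FBgn0028369, chrX:2740384-3134532), needed for myoblast fusion, led with 20 regions, 17 of them intronic, of signal 107 to 841, 15 backed by all 3 replicates. It spans 394 kb, and 22 other protein-coding genes overlap it, the eye colour gene w among them. A span of this kind does not assign a region to the gene.

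CG1677 (FBgn0029941, chrX:7281089-7405797) followed with 15 regions, 13 of them intronic, over a span of 125 kb that 13 other protein-coding genes share. Raf (FBgn0003079), the kinase between Ras and MAP kinase kinase, held 11 regions over 48.4 kb, with a top signal of 1240. Tlk (FBgn0283657), which encodes the Tousled-like kinase known for work in chromatin assembly, also held 11, of which 10 were intronic and 3 were backed by all replicates. No other protein-coding gene overlaps Tlk or the forkhead factor gene CHES-1-like (FBgn0029504), which held 10 regions within 27.0 kb, 8 of them backed by all 3 replicates. Hr4 (FBgn0264562), a nuclear receptor gene of the ecdysone response, held 9.

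Further X genes of this kind had 8 or 7 regions. The 7 regions each of the integrin gene mew and the transcription factor gene NFAT were all intronic. In the span of dnc, the cAMP phosphodiesterase gene of learning, 5 of 7 were at promoters. A promoter of any gene counts here, and 8 other protein-coding genes overlap dnc. CG12535 held 8 regions, and the growth regulator gene Myc lies in its span. On the other arms ush, a GATA cofactor gene on 2L, held 17 regions and the ETS factor gene pnt on 3R held 11.

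**Figure D3:**
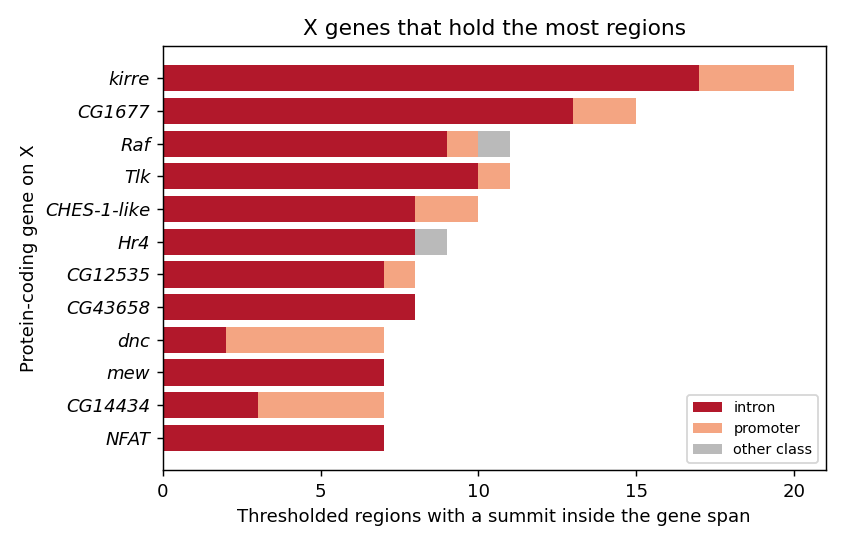
Number of thresholded regions with a summit inside the span of a protein-coding gene, for the 12 X genes with the most, split by position class. The bar of kirre reaches 20 and that of CG1677 15, and introns make up most of the bars other than those of dnc and CG14434.

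The densest 50 kb window of X, chrX:7292038-7342037, lay within the span of CG1677 and held 14 regions, against 16, 15 and 12 in the densest windows of 2L, 3L and 3R. Their signals lay between 140 and 1116, the median being 390, and 13 were backed by all 3 replicates. By class 13 were intronic and 1 was a promoter, that of CBP. The window also holds Dok, Acsf3, Atg5, CG42780 and brk, of which Atg5 encodes an autophagy protein and brk the repressor of Dpp target genes. With these genes inside an intron of CG1677, sequence between them counts as intron here.

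The longest stretch of X without a region ran for 877.5 kb (chrX:21631742-22509253), against 358.3, 376.8 and 337.6 kb on 2L, 3L and 3R. On 2R, outside the comparison, the longest was 610298 bp. The stretch on X holds 31 protein-coding genes and lies towards the centromere end of the assembled X. The pooled list of 30000 regions, from which the thresholded list comes, had 12 regions there.

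Neither the signal of X regions nor their spacing in bp differed from those of the 3 arms past the threshold over the whole list, and spacing passed it under 2 other settings. The signal had a median of 175 on X (quartiles 132 and 287), against 180 on the 3 arms (133 and 283). The log2 signal of X minus that of the arms was -0.019 (SE 0.03, interval -0.078 to 0.04, linear model, n = 4167 regions, p = 0.537). The distance to the next summit had a median of 8809 bp on X, against 9380 bp on the 3 arms. The log10 distance of X minus that of the arms was -0.013 (SE 0.024, interval -0.061 to 0.034, linear model, n = 4163 distances, p = 0.584). Among regions backed by replicates 2 and 3, replicate 1 left out, it was -0.0715 (n = 2648, p = 0.024), and counted in TSS positions between neighbours it was -0.0383 (n = 4163, p = 0.0135). Neighbours under 1 kb apart made up 9.67% of the distances on X, 8.06% on the 3 arms and 9.47% on 2R.

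**Figure D4:**
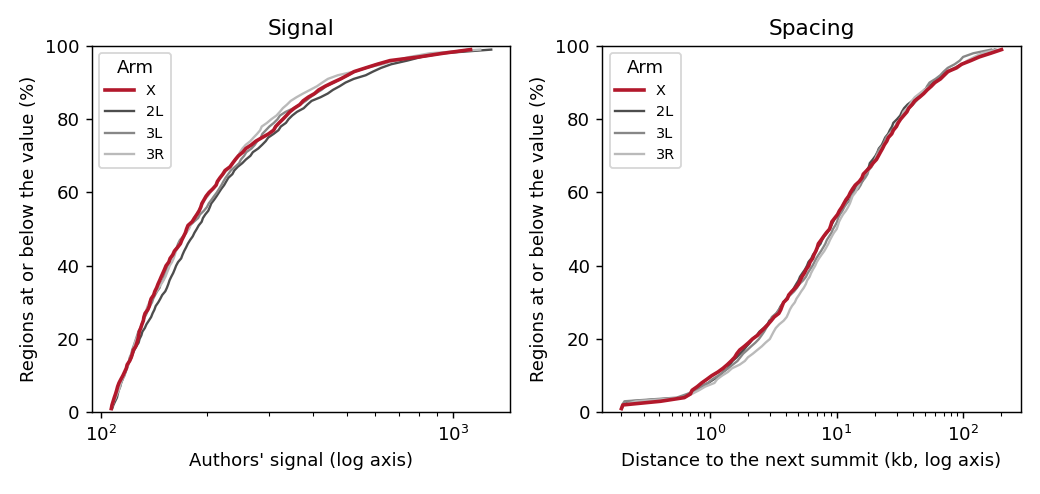
Share of the regions of an arm (percent, vertical axes) at or below a given signal (left, log axis) and a given distance to the next summit (right, kb, log axis), for X, 2L, 3L and 3R, from the first to the ninety-ninth percentile. The curves of X run close to those of the other arms. The median signal of X, 175, is the lowest, with 187, 177 and 178 on 2L, 3L and 3R. At the ninety-ninth percentile the distance on X, 200700 bp, is the largest, with 177300, 166700 and 182700 bp on those arms.

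By length the rate of regions on X did not pass the test against 2L, 3L and 3R together, and it passed against all 4 large autosome arms. X had 40.4 regions per Mb (interval 37.9 to 43.1), against 38.4 on the 3 arms (37.1 to 39.8), a ratio of 1.05 (interval 0.978 to 1.13, exact conditional binomial test, two-sided, p = 0.166). With 2R among the arms the ratio was 1.09 (exact binomial test, p = 0.0242). Per 1000 annotated TSS positions it had 244, against 220, a ratio of 1.11 (1.03 to 1.19, exact binomial test, p = 0.00589), but that call was lost when copies of transposons in the annotation were counted as genes (1.07, p = 0.0574). The ratio per Mb was 1.17 among regions backed by replicates 2 and 3 (exact binomial test, p = 0.000471) and 1.15 among those backed by replicates 1 and 2 (p = 0.00236), which are the regions where the backing of replicate 2 counts, and 1.02 among those backed by replicates 1 and 3. Of the whole pooled list, chromosomes outside the large arms included, X held 18.2% of the 500 strongest regions, 21.2% of those ranked 501 to 1000 and 18.7% of the rest of the 5035 strongest. It held 16.7% of those ranked 5036 to 10000, 14.4% (interval 13.7 to 15.1) of those ranked 10001 to 20000 and 16.0% (15.3 to 16.7) of those ranked 20001 to 30000.

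The share of X among the top regions was 17.5%, 18.6% and 18.0% in replicates 1, 2 and 3 (mean 18.0% ± 0.551, SD, n = 3). In their full lists of 30000 it was 15.8%, 13.8% and 16.5%. X makes up 17.8% of the length of the 5 large arms and 16.7% of their TSS positions, other chromosomes left out. Replicate 2 thus had the highest X share among its top regions and the lowest in its full list.

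Replicate 2 backed X regions more often than regions elsewhere. Its top summits lay in 730 X regions (76.7%, interval 73.9 to 79.3), against 2210 on the 3 arms (68.7%, interval 67.1 to 70.3), or 72.9%, 68.1% and 66.0% on 2L, 3L and 3R (Fisher's exact test, two-sided, adjusted over 4 tests, adjusted p = 6.97e-06). Replicate 1 backed 83.1% on X and 84.9% on the arms (Fisher's exact test, adjusted p = 0.247), and replicate 3 backed 87.6% and 88.7% (adjusted p = 0.357). With the position class in a logistic model the difference for replicate 2 was 7.8 percentage points (n = 4167 regions, adjusted p = 4.24e-05). Among intronic regions replicate 2 backed 83.9% on X, against 78.5%, 72.1% and 69.5% on 2L, 3L and 3R, and among promoter regions 68.5%, against 66.1%, 64.8% and 63.3%. Among intergenic regions it backed 80.0% on X, against 82.8%, 70.6% and 69.4%, so 2L was above X there. The differences within classes were not tested.

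All 3 replicates backed 577 X regions (60.6%), against 1778 on the 3 arms (55.3%; Fisher's exact test, adjusted p = 0.00741). With only the strongest region of every 10 kb bin kept, that difference was 3.8 points and did not pass Fisher's exact test (adjusted p = 0.17). Exactly 2 replicates backed 254 X regions (26.7%), against 29.9%, 32.5% and 34.2% of regions on 2L, 3L and 3R. Just 1 backed 116 on X (12.2%), against 11.4%, 11.2% and 12.4% on those arms. None backed 5 on X (0.525%), against 0.62%, 0.676% and 0.661%. Of the 100 strongest X regions 97 were backed by all 3 replicates, and of the 100 weakest 2 were. That last count was made on X only.

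Among the 5 X regions with no replicate behind them, 4 had a signal between 108 and 116, near the bottom of the list. The other was at Sxl (chrX:7096555-7096661, signal 341), where the summit fell on the last base of a region of 107 bp. Top summits of replicates 1, 2 and 3 lay 1, 51 and 7 bp from it, and top regions of all 3 overlapped the region. In 4 regions of the list the summit offset equals the region's length, which leaves a doubt of 1 bp on summit positions.

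The 15 strongest X regions comprised 8 at promoters, 6 in introns and 1 in a noncoding exon, and all 15 were backed by the 3 replicates. The strongest, rank 4 of the whole list (chrX:2137145-2137596, signal 2894), lay 488 bp upstream of a TSS of ph-p (FBgn0004861), a Polycomb repressive complex gene. Its summit was inside the span of ph-p and would not count as a promoter with the distance of 250 bp. It ranked 5, 5 and 4 in replicates 1, 2 and 3. The next (chrX:2703682-2704088, signal 2772) lay 30 bp upstream of Ugalt (FBgn0024994), a UDP-galactose transporter gene, and ranked 6, 6 and 7. The third (chrX:4910180-4910571, signal 1694) lay in an intron of CG32772 and ranked 30, 29 and 21. A pair of regions, of signal 1694 and 1620, flanked the start of the noncoding RNA CR44619, 448 bp upstream and 501 bp downstream of it.

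Introns held the strong regions at Tlk (signal 1601), CG3726 (1269), LPCAT (1267), Raf (1240) and NFAT (1081). LPCAT encodes a phospholipid acyltransferase. The summit at Raf lay 2260 bp and that at LPCAT 690 bp downstream of the nearest TSS. Promoter regions followed at bves and Stt3A (1122), MFS10 (1116), CBP (1116), Atf3 (1084) and TRAM (1047). Stt3A encodes a catalytic subunit of oligosaccharyltransferase, Atf3 a bZIP transcription factor and TRAM a protein of the endoplasmic reticulum translocon. The lowest ranks that any of the 15 took were 85, 215 and 117 in replicates 1, 2 and 3, the 215 being the region at bves.

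Of the protein-coding genes on X, 438 of 2196 (19.9%, interval 18.3 to 21.7) had a summit within 500 bp of a TSS and are called bound, against 1896 of 8817 (21.5%, interval 20.7 to 22.4) on the 3 arms. No test was made of this difference. X promoter summits mostly lay upstream of the start: 303 of the 372 nearest to a protein-coding TSS did (81.5%), against 84.1%, 83.1% and 82.9% on 2L, 3L and 3R. Their median position was -112 bp on X and -96, -92 and -88 bp on those arms, negative values being upstream.

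Of 9 genes of dosage compensation and X counting, 2 were bound (22.2%, interval 2.81 to 60.0). The weak region at roX1 (FBgn0019661, signal 119, backed by 1 replicate) lay inside the span of the gene, 89 bp upstream of a TSS of it. Sxl had 4 regions inside its span, among them the region of signal 341 described above. No TSS of roX2 was within reach of a summit, although a region of signal 184 had its summit 48 bp past an end of the gene. The gene mof had no thresholded region, and the best rank of a pooled region in or near it was 7776.

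Of 10 genes of replication, repair and the cell cycle, 1 was bound, the checkpoint kinase gene mei-41 (signal 184), whose summit also lies within 500 bp of TH1. Not bound were, among others, Cdc45, the helicase cofactor of replication forks, and Cdk7, the kinase of TFIIH. None of the 5 genes of the X chorion amplicon was bound, including Cp36 and Cp38, which encode eggshell proteins and are amplified in ovarian follicle cells. The upper bounds of these shares were 44.5% and 52.2%, so lists this small do not set them apart from 19.9%.

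Beside the 19.9% of all protein-coding genes of X, 6 of 13 chromatin genes were bound (46.2%, interval 19.2 to 74.9), and the interval includes that share. They were led by ph-p (2894), fs(1)h (203), which encodes a BET protein, and HP1b (189), a heterochromatin protein 1 family gene. The summits at fs(1)h and HP1b also lie within 500 bp of a TSS of mys and of CG7246. The summit at trr, another of the 6, lies within 500 bp of mRpL16 too. Bap111, a Brahma complex gene, and dwg were not bound. Among 13 signalling genes 3 were bound (23.1%, interval 5.04 to 53.8), the kinase gene sgg of the Wnt pathway (852), the phosphatase gene csw (191) and the receptor gene N (148), while the Wnt pathway genes arm and dsh were not. With regions anywhere inside the gene counted too, 5 of the 13 had one, and the strongest inside N had a signal of 658.

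Of 17 patterning factors 2 were bound (11.8%, interval 1.46 to 36.4), oc (146) and bi (109), and the proneural genes ac and ase were not. With regions inside the gene counted too, 5 of the 17 had one, with signals of up to 439 in ct, which held 3, and 267 in bi. Neural genes gave 2 of 10 (20.0%, interval 2.52 to 55.6), the RNA-binding protein gene elav (982) and dnc (848), while Appl and eag, a potassium channel gene, were not bound. Cytoplasmic ribosomal protein genes stood at 13 of 15 (86.7%, interval 59.5 to 98.3, above the 19.9% of all X genes), led by RpL22 (381), RpL17 (334) and RpS5a (264), with RpL35 and RpS19a not bound. Some of the summits also lie within 500 bp of a TSS of another gene. Among them are those at RpL22 and RpL17, near noncoding RNA genes, and at RpS6, near bys. The regions at RpS6 (114) and RpS14b (111) were each backed by 1 replicate, the others by 2 or 3. These lists were chosen with earlier results known, and no set test was made.

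No difference in motif content between X summits and those of the other arms passed the test. Motifs were read on both strands within 100 bp of the summit and compared for promoter and for other summits. They were the sequence GAGAG of GAGA factor and its longer form GAGAGAGA, which contains it, TATCGATA of the factor DREF, GGTCACAC of the promoter factor M1BP, CAGGTAG of the early embryonic factor Zelda, the E-box CAGCTG and the repeat CACACACA. None of the 14 comparisons passed (logistic model, Benjamini-Hochberg adjustment), and 1 had an unadjusted p under 0.05. That was CAGCTG outside promoters, found at 23 of 555 X summits (4.14%), against 108 of 1683 (6.42%) on the 3 arms (n = 2238 summits, p = 0.0497, adjusted p = 0.696), and in 8.5% of all windows of that width on X.

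TATCGATA stood at 7.56% of X promoter summits and 7.25% of those on the 3 arms, against 0.706% of all windows on X and 0.495% on the arms. At start sites with no region within 2000 bp it stood in 8.71% of windows on X and 4.96% on the arms. The difference of bound against unbound sites between X and the arms had a log odds of -0.556 (SE 0.232, logistic model, n = 12491 sites, adjusted p = 0.116), and none of the 7 such interactions passed, with 1 at an unadjusted p under 0.05. A match says only that these letters are in the window.

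The 7 marked 6-mers stood within 100 bp of 359 of the 555 X summits outside promoters (64.7%), against 63.3% on the 3 arms. In windows of the same width 1000 bp away, at least 1 of the 7 stood in 35.4% on X and 36.2% on the arms. X intronic summits had 63.2%, X intergenic summits 71.8% and X promoter summits 59.4%. In narrower windows, 50 bp to either side of their centre, the share was 46.7% and 47.0% at 100 bp to the left and right of X summits outside promoters, and 28.8% at the summit itself. The arms had 43.6%, 43.1% and 29.0% at these places. The 6-mers were picked for being common within 100 bp of X summits, so their excess there is no finding and has no test.

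**Figure D5:**
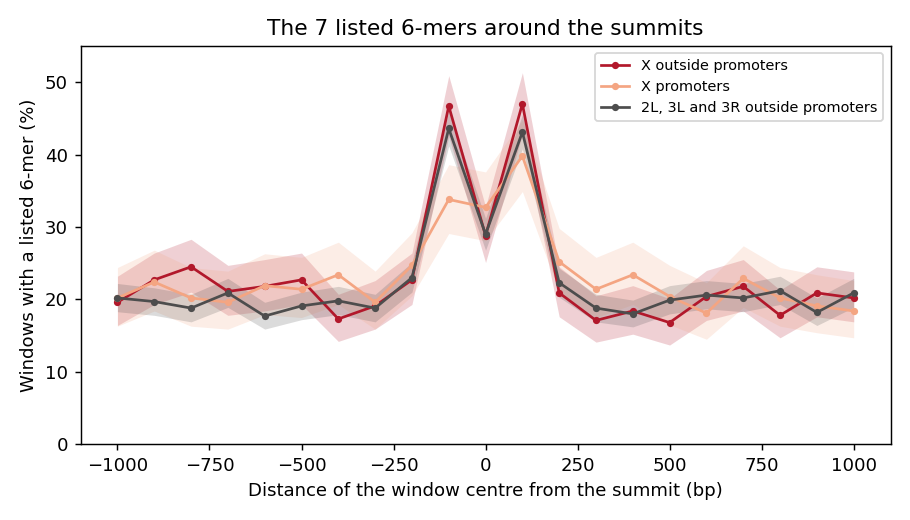
Share of windows (percent, 50 bp to either side of their centre) that hold at least 1 of the 7 marked 6-mers, by distance of the centre from the summit in bp, for X regions outside promoters, X promoters and regions of 2L, 3L and 3R outside promoters. Shading shows exact 95% intervals. Outside promoters the share is highest 100 bp to either side of the summit, at 46.7% and 47.0% on X, with 28.8% at the summit.

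Base composition is given as a description. Mean GC content within 100 bp of the summit was 38.4% at X promoters, against 36.6%, 36.8% and 37.2% on 2L, 3L and 3R. In introns it was 35.9% on X and 35.3%, 34.9% and 35.7% on those arms. All windows of the X had a mean of 42.5%.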

How the data were processed

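The 3 replicates were taken from the labels as 1 group. Per the notes deposited with the samples, regions were called from each replicate's alignments and from the pooled alignments, each against 1 control file per build, and the authors derived the thresholded list from these with the irreproducible discovery rate. Aligner, peak caller and settings were not given in the sources used here. The signal of each region is the authors' score, deposited with no stated scale, and the −log10 q-values that the authors deposited with it were not used for ranking. Sonicated fragments of 200 to 800 bp were sequenced, per the labels.

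Genes came from Ensembl release 115 and sequence from the RefSeq Release 6 assembly, which has the dm6 coordinates. A first run of the position classes counted annotated transposon copies (5243 on the 5 large arms) as genes. They were then left out, after results had been seen. Summits past the end of a region were set to its last base. Tests were Fisher's exact test, the exact conditional binomial test, linear and logistic models and exact sign flips, with a threshold of 0.05 (scipy 1.17.1, statsmodels 0.14.6, pandas 2.3.3). Fisher's test, the binomial test and the linear model were tried on simulated regions with known shifts. Those regions were drawn independently, unlike neighbouring regions here. The logistic models and sign flips were not simulated. Named genes were those of the 15 strongest X regions, of the densest window and, per gene list, the 3 of highest signal and 2 unbound in symbol order. Genes holding 5 or more regions were described beyond that rule, as were mof and roX2, and both were chosen after values were seen. The members and lists were chosen with earlier results of these data known.

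Alternatives were the higher-signal part of the list (signal of 179 or more), regions of the same list backed by both other replicates when 1 was left out, all 4 large autosome arms, other promoter distances (250 and 1000 bp), other rules for backing, the dm3 list (4680 regions, 874 on X) and a narrower motif window. Added after seeing the data were the annotation choices, 10 kb bins, rates per class sequence and the class covariate. The per-replicate class tests and the 6-mers, 7 of the leading 8, were also chosen then.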

Additional observations from a re-analysis of the deposited data

How the results depend on the processing

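Settings without 1 replicate are regions of the same list backed by both other replicates. The list itself was not called again, so they cannot show a result free of the left-out replicate. The intron difference kept its direction and its call under all alternatives run (16.0 to 18.4 percentage points without 1 replicate, 7.91 with genes of 50 kb or more left out, 15.4 with all regions). The intergenic difference (-11.3 to -10.7 points without 1 replicate) lost its call when genes of 50 kb or more were left out (-2.06 points), a setting that turns introns of those genes into intergenic sequence. The promoter difference (-8.11 to -6.76 without 1 replicate) lost its call as a rate per Mb of promoter sequence (log2 ratio -0.0123). The ratio of regions per Mb, 1.05 and not past the threshold, passed it against all 4 large autosome arms (1.09) and per TSS position (1.11). Per TSS position with transposon copies counted as genes it did not (1.07), so that call rests on a choice made after results had been seen. Without 1 replicate the ratio was 1.02 to 1.17. The log2 signal difference changed sign in the higher-signal part (0.011) and without replicate 2 (-0.0718 to 0.0151 over the 3 left-out replicates). Log10 spacing passed the threshold in TSS positions between neighbours (-0.0383) and without replicate 1 (-0.0715 to -0.00897). Backing by all 3 replicates lost its call with 1 region per 10 kb bin (3.8 points). No cause of these changes was tested beyond what each setting itself changes. Differences that did not pass the threshold changed sign as follows. With 1 region per 10 kb bin the 5' UTR difference was -0.0698 points, with promoters within 250 bp the coding exon difference was -0.027 (-0.158 to 0.22 without 1 replicate), and in the higher-signal part noncoding exons gave 0.0296 points. Backing by replicates 1 and 3 changed sign in the higher-signal part (0.868 and 0.434 points) and with full replicate lists (0.684 and 0.427). The 5' UTR difference passed the threshold with promoters within 250 bp (1.02 points). The 3' UTR difference passed the threshold under 6 settings (0.786 to 1.17 points). Of motif log odds at promoters, in the higher-signal part GAGAG gave 0.281, TATCGATA -0.271 and GGTCACAC 0.07. In the narrower window GAGAGAGA gave -0.192, TATCGATA -0.0583, CAGGTAG 0.0981 and CAGCTG 0.0136. Without 1 replicate GAGAG gave 0.0531 to 0.179 and TATCGATA -0.239 to -0.0712. Outside promoters GAGAGAGA gave 1.12 in the higher-signal part, 0.194 in the narrower window and 0.171 to 0.402 without 1 replicate, GGTCACAC gave 0.0088 in the higher-signal part, and without 1 replicate TATCGATA gave -0.822 to 0.433 and CAGGTAG -0.0393 to 0.384. No motif comparison passed the threshold under any setting run, with 0 of 14 each time. X and the arms were compared within each replicate in the report, and between sample groups no fit with a replicate block could be made, since there is 1 group. The unknown depth of the libraries limits every count of regions.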
